A study of Mus musculus with 3 samples.

Results

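Pluripotent-like cells were described in the mouse embryonic stem cell (mESC) culture at day 6 (D6) of paraxial mesoderm induction. They were the cells that the authors' deposited cluster row gives the code 2, and they made up 17.4% of the 5954 D6 cells (95% Clopper-Pearson interval 16.5 to 18.4), the other 4916 cells lying in 5 other clusters. The series held 15827 cells in 3 single-cell RNA libraries, 1 per condition, so that no comparison has a replicate and no p-value is given. The D6 library (Differentiated Paraxial Mesoderm) came from mESCs of ScxGFP reporter blastocysts, which carry green fluorescent protein under Scx regulatory sequences and had been kept on mouse embryonic feeder cells with serum and LIF. They were formed into embryoid bodies and treated with the BMP receptor inhibitor LDN-193189 (500 nM), to which the WNT activator CHIR (5 μM) was added. The D10 library (Differentiated Tenocytes), used for 1 comparison below, had gone through the same steps and then received TGFβ1 (10 ng/mL), the hedgehog agonist SAG (100 nM) and FGF2 (10 ng/mL). Which mESC line gave the D6 library is not given in the sources used here.

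Pluripotent cells can form every tissue of the embryo. The transcription factors Pou5f1 (OCT4), Sox2 and Nanog bind together near their targets, their own genes included. In the naive state of the preimplantation epiblast and of mESCs in LIF, factors such as Klf2, Klf4, Esrrb and Tfcp2l1 support this core. In the formative and primed states that follow, Fgf5, Otx2 and Pou3f1 are switched on while naive genes are shut off. Paraxial mesoderm comes later, after cells leave pluripotency through the primitive streak.

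Depth was higher in these cells than in the rest of the culture. They held 12179372 unique molecular identifiers (UMIs, each 1 captured RNA molecule), with a median of 11208 UMIs and 3869.5 genes per cell, against 7801.5 UMIs and 3174.5 genes in the other 4916 cells. Levels below are summed UMIs of a gene as counts per 1e+06 UMIs of the same cells (CPM), with 95% intervals that cover counting error only, and a ratio divides the CPM of the pluripotent-like cells by that of all other D6 cells. Shares of cells with a UMI were taken after each cell was thinned to 3000 UMIs, which left out 120 of the cells and kept 918. The clusters had been drawn from these same values, so a high level of a defining gene describes the cluster and is no test of it.

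The markers fixed for these cells were checked first. Dppa5a, a KH-domain RNA-binding protein of the early embryo, stood at 6302 CPM (6258 to 6347), and in the 5 other clusters at 35.9, 39.8, 51.2, 26.5 and 16.4 CPM. Nanog was at 326 CPM (316 to 337), against 2.31, 3.54, 2.14, 1.53 and 0 CPM. For Pou5f1 the level was 460 CPM (448 to 472), against 6.22, 4.98, 3.78, 3.56 and 4.22 CPM. All 3 levels were far higher in the pluripotent-like cluster than in any other. Because these genes serve as its markers, this describes the cluster and is no test of it. Sox2 (496 CPM), Utf1 (388 CPM), Tdgf1 (198 CPM), Zfp42 (158 CPM) and Esrrb (58.9 CPM) completed the 8 markers and showed the same order.

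**Figure D1:**
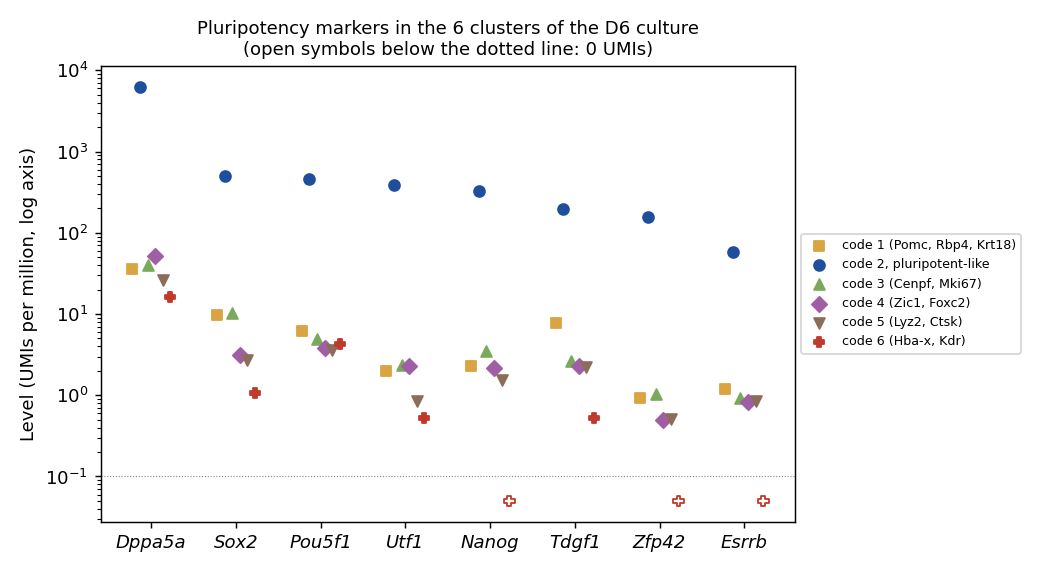
Level of 8 pluripotency markers in the 6 clusters of the D6 culture, in CPM on a log axis. Filled circles are the pluripotent-like cells, with 95% counting intervals that are mostly smaller than the symbols. Other symbols are the 5 remaining clusters, named by 2 or 3 leading genes, and open symbols mark 0 UMIs; every marker lies at least 10 times higher in the pluripotent-like cells.

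Cell by cell, a UMI of Dppa5a was found in 94.9% of the thinned pluripotent-like cells (93.2 to 96.2), of Sox2 in 68.8% (65.7 to 71.8), of Pou5f1 in 66.9% (63.7 to 69.9) and of Nanog in 51.4% (48.1 to 54.7). In the other D6 cells the shares were 8.36%, 1.99%, 1.56% and 0.819%. The Dppa5a share was 6.55 to 9.33% in each of the 5 other clusters, where its level ran from 16.4 to 51.2 CPM. These shares serve as the background beside the share above, and their source was not tested. A median of 4 of the 8 markers was seen per pluripotent-like cell, and 21 of 918 cells showed none. Among the other cells 3496 of 4030 showed none, 490 showed 1 and 33 showed 2. At full depth 745 pluripotent-like cells held UMIs of all of Pou5f1, Nanog and Dppa5a, as did 10 cells outside the cluster, 4 of which were called doublets. A further 35 cells of the cluster held none of the 3, at a median of 3490 UMIs.

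RefSeq promoters (GRCm38.p6, 250 bases before to 50 after each start) were matched for 17 of 25 genes of a core pluripotency list, with 26 promoters. They were searched on both strands for the octamer core TTTGCAT, the SOX core CATTGT and a joined element, in which 1 free base parts the SOX core from the reverse complement of the octamer core, so that it holds both. It was found in 2 of the 32851 promoters of the whole table, both of Nanog and overlapping each other. The octamer core was in 4 of the 26 core promoters (15.4%), against 4.63% of all promoters, but 2 of the 4 are overlapping Nanog windows that hold the same match, so that 3 of 17 genes had one. The SOX core was in 4 (15.4%), again with both Nanog windows and 3 genes, against 12.6%. The 3 core genes with the octamer core were Nanog, Sox2 and Zfp296. In the naive list the octamer core was in 1 of 15 promoters (6.67%), that of Zfp42, and the SOX core in 1 (6.67%). For the 20 genes with the largest ratio the octamer core was in 2 of 13 promoters (15.4%) and the SOX core in 1 (7.69%). Nanog and Sox2 of the core list and Zfp42 of the naive list are shown because each is one of the 8 markers described above and holds an octamer core, in capitals with any SOX core. The Nanog window lies at chr6:122707239-122707538 on the plus strand, the Zfp42 window at chr8:43306960-43307259 on the minus strand and the Sox2 window at chr3:34649745-34650044 on the plus strand.
Nanog: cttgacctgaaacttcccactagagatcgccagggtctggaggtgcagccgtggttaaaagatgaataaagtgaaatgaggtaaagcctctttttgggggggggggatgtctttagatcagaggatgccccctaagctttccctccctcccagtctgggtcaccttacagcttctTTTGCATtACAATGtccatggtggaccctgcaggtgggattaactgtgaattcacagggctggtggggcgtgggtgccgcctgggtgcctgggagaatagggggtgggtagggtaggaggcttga
Zfp42: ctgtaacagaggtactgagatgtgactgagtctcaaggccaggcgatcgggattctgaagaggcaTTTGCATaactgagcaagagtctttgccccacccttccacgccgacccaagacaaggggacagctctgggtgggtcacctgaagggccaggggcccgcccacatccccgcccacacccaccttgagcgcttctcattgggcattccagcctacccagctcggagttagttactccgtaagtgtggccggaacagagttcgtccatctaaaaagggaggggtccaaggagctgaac
Sox2: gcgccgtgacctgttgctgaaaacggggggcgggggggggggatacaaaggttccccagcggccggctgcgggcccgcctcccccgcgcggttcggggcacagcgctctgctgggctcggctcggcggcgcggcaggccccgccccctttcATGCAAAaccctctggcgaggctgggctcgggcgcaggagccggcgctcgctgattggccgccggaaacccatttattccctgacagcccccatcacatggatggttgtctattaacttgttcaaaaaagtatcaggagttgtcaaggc
In Nanog the octamer core starts 75 bases before this start site and the SOX core, on the opposite strand, 67 bases before it. A match describes these letters only and does not show binding.

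The core list held 25 genes, of which 24 were detected in at least 10% of cells on either side. Of these 20 were at least 2-fold higher in the pluripotent-like cells and 1 was at least 2-fold lower, where 13.1% of all 9494 genes tested were higher and 15.5% were lower. The median log2 ratio of the list was 4.85, beside 0.02 over all genes tested. Markers of this cluster, Pou5f1 and Nanog among them, are on the list, so these figures describe the cluster and are no test. List medians here cover all members with at least 10 UMIs, tested or not. Gdf3, a TGFβ-family ligand, was at 95.5 CPM against 0.277 (ratio 344, 192 to 692). Fgf4, the autocrine ligand that primes mESCs to leave self-renewal, was at 91.5 CPM against 0.403 (ratio 227, 139 to 398). Tdh, a mitochondrial enzyme of threonine breakdown, was at 465 CPM against 3.05 (ratio 152, 127 to 184). Mybl2, a cell cycle transcription factor, was at 320 CPM against 12.2, and Rif1, which acts in replication timing and telomere biology, at 580 CPM against 122. Not every member followed: Sall4 was at 164 CPM against 130, and Lin28a at 24.8 CPM against 43.5. Otx2, placed in both the core and the primed list, was the lower one.

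Among genes with at least 100 UMIs and 50 CPM on the higher side, the 20 with the largest ratio were, in order, Arl14epl, Gdf3, Tcl1, Dppa3, AU018091, Epp13, Dppa4, Fgf4, Lrrc31, Rhox6, Gtsf1l, Fmr1nb, Utf1, Rhox9, Zfp42, Triml2, Hormad1, 2210409E12Rik, Dppa5a and Platr3. Their ratios ran from 415 for Arl14epl (177 to 1283) to 168 for Platr3 (99.6 to 309). Dppa3, a maternal-effect protein that protects DNA methylation in the zygote, was the most abundant after Dppa5a, at 463 CPM against 1.59. In the other D6 cells the 20 genes stood at 0.241 to 0.594% of their level in the pluripotent-like cells. With each cell given equal weight the ratio was 147 for Gdf3, 98.4 for Fgf4 and 127 for Utf1. It was 108 for Rhox6 in place of 214, 157 for AU018091 in place of 256 and 118 for 2210409E12Rik in place of 181, so the order holds for the summed counts only.

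Of 20 genes on the naive list 18 passed the detection filter. Of these 17 were at least 2-fold higher (94.4%, beside 13.1% of all genes), with none lower and a median log2 ratio of 5.25. Klf2 was at 596 CPM (583 to 610) and had 40.5 CPM in its next highest cluster, that of Lyz2 and Ctsk. Tfcp2l1, a self-renewal factor downstream of LIF, was at 139 CPM against 7.59 (ratio 18.3, 16.2 to 20.8). Esrrb, an orphan nuclear receptor, was at 58.9 CPM against 0.983 (ratio 59.9, 43.4 to 84.9), and Zfp42 (REX1), a widely used reporter of the naive state, at 158 CPM against 0.781 (ratio 202, 142 to 299). Klf4 and Klf5 had smaller ratios (6.04 and 7.22). Klf4 was at 128 CPM and had 67.5 CPM in the cluster of Lyz2 and Ctsk, and Klf5 was at 278 CPM and had 60.9 CPM there. Tet2, at 79.2 CPM against 58.9, was the tested member that stayed inside 2-fold.

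Formative and primed genes divided. Of 20 genes 17 passed the filter, 5 were higher (29.4%) and 6 were lower (35.3%), and the median log2 ratio was 0.13. The shares over all genes were 13.1% and 15.5%. Those higher were Lefty2 (65.2 CPM against 1.29), Nodal (53.1 against 6.91), Pou3f1 (15.03 against 2.14), Lefty1 (50.7 against 10.6) and Lef1 (63.3 against 18.9). Nodal is a ligand of the early embryo, and Lefty1 and Lefty2 are its secreted inhibitors. Those lower included Fgf5, the classical mark of the postimplantation epiblast, at 2.87 CPM (2.002 to 3.997) against 49.0 (46.9 to 51.2), and Otx2, at 9.77 CPM against 76.3. Both were highest in the cluster led by Pomc, Rbp4 and Krt18, with Fgf5 at 79.7 CPM and Otx2 at 118 CPM. A UMI of Fgf5 was seen in 5 of 918 thinned pluripotent-like cells, or 0.545%. The Fgf5 ratio was 0.0586, and 0.00893 with called doublets left out. Dnmt3b, the de novo DNA methyltransferase that increases on leaving the naive state, was at 28.7 CPM against 24.4.

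**Figure D2:**
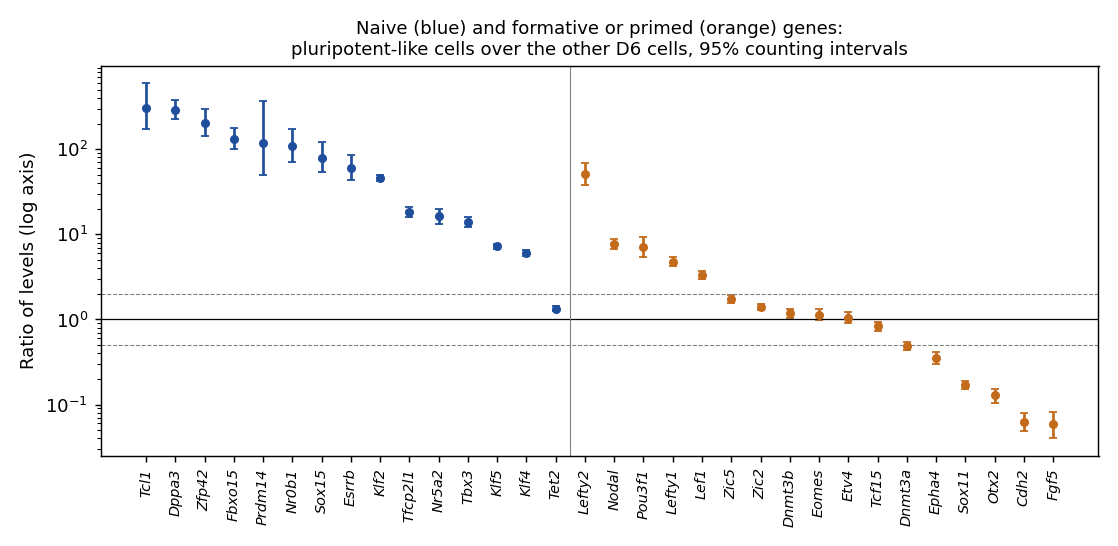
Ratio of the level in the pluripotent-like cells to that in the other D6 cells, on a log axis, for 15 naive genes (blue) and 17 formative or primed genes (orange), each sorted by ratio; bars are 95% counting intervals and dashed lines mark 2-fold. The naive genes lie above 2-fold except Tet2, while the orange genes run from Lefty2 (ratio 50.7) down to Fgf5 (ratio 0.0586).

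Signalling genes were described by pathway role. For LIF, which acts through a receptor, JAK kinases and STAT3, 3 of 11 tested genes were higher (27.3%) and 2, Jak2 and Junb, were lower (18.2%, near the 15.5% of all genes). The targets Pim1 (226 CPM against 28.4) and Pim3 (129 against 55.7) and the adaptor Gab1 (53.9 against 22.8) were higher, whereas the receptor Lifr (24.2 against 35.4) and Stat3 (30.5 against 49.9) were not, and Socs3 was at 27.6 CPM against 25.9. In the FGF list 2 of 13 tested genes were higher (15.4%, near the 13.1% of all genes), Fgf4 and the ERK-responsive factor Etv5 (90.2 CPM against 17.4). The 4 lower ones (30.8%) were the receptor Fgfr2 (4.60 against 20.2), the feedback inhibitors Spred1 (33.5 against 75.4) and Dusp4 (13.4 against 30.4), and the kinase Mapk3 (40.97 against 96.5).

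Of 15 WNT genes tested 2 were higher (13.3%, near the share of all genes) and 6 lower (40%). Sp5, a direct WNT target, was at 57.7 CPM against 213. The secreted inhibitor Dkk1 (18.4 against 320), the receptor Lgr5 (1.31 against 24.8) and the feedback inhibitor Nkd1 (3.45 against 65.9) were lower. The pathway target Axin2 was at 29.97 CPM against 40.5. Without called doublets the ratio was 0.0187 in place of 0.0575 for Dkk1 and 0.00707 in place of 0.0530 for Lgr5. Lef1 and the posterior homeobox gene Cdx1 (42.0 CPM against 7.54) were the higher ones. In the BMP list, read in a culture held in a BMP receptor inhibitor, 7 of 12 tested genes were lower (58.3%). The inhibitory Smad7 (131 CPM against 62.9) was the 1 higher gene (8.33%, below the 13.1% of all genes). Bmp2 was at 5.34 CPM against 117 (ratio 0.0458, and 0.0249 without called doublets), Id1 at 10.2 against 52.9 and Id3 at 48.7 against 185. In the retinoid list 8 of 11 tested genes were lower (72.7%, beside 15.5% of all genes) and none was higher. Among the lower were the retinol receptor Stra6 (4.76 CPM against 95.1, a ratio of 0.0501 and of 0.0320 without called doublets) and the binding protein Crabp1 (5.91 against 123).

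Chromatin genes tended to higher levels. Of 20 regulators 11 were higher (55%) and 1 was lower (5%), with a median log2 ratio of 1.05. The shares over all genes were 13.1% and 15.5%. Components of Polycomb repressive complex 2, which methylates histone H3, were all above 2-fold: Suz12 was at 619 CPM against 140, Ezh2 at 322 against 151 and Eed at 142 against 49.5. Its partners Mtf2 (368 against 98.4) and Jarid2 (332 against 94.7) were also higher. Among readers of that mark Cbx7 was higher (63.5 CPM against 5.19) and Cbx2 lower (5.83 against 16.7). Of 9 DNA methylation enzymes tested 3 were higher (33.3%) and 2 lower (22.2%, near the 15.5% of all genes). Dnmt3l, a catalytically inactive cofactor, was at 102 CPM against 1.46, Tet1 at 265 against 43.9 and Dnmt1 at 149 against 68.5. Dnmt3a (26.8 against 54.9) and Tet3 (12.2 against 40.4) were lower.

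In the germ cell list 10 of 12 tested genes were higher (83.3%, beside 13.1% of all genes) and none lower. A further 6 were not tested for low detection. Tfap2c, a factor of germ cell specification and of naive pluripotency, was at 111 CPM against 1.06, the piRNA-pathway gene Tdrd12 at 205 against 3.70, and the RNA-binding protein gene Dazl at 56.7 against 0.529. Nanos3 was higher at a low level (11.2 CPM against 2.22), and Prdm1 (29.3 against 20.7) and Kit (64.3 against 103) stayed inside 2-fold. All 9 tested genes of a list of germline and reproductive homeobox genes, most of them X-linked, were higher, with a median log2 ratio of 5.91. The list was led in level by Trap1a (680 CPM against 8.87), followed by Rhox5 (276 against 5.85), then Rbmxl2 (248 against 1.69). The paralogs Rhox6 and Rhox9 were at 59.2 and 57.1 CPM, against 0.277 each. Near-identical copies in these families could share reads, which the authors' counting leaves out. The oocyte-complex gene Ooep, a relative of Dppa5a, was at 389 CPM against 2.97. Of the 25 genes on the 2-cell-like list 6 are in the file and 1, Eif1a, passed the filter (264 CPM against 157); the Zscan4 genes were not analysed here.

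**Figure D3:**
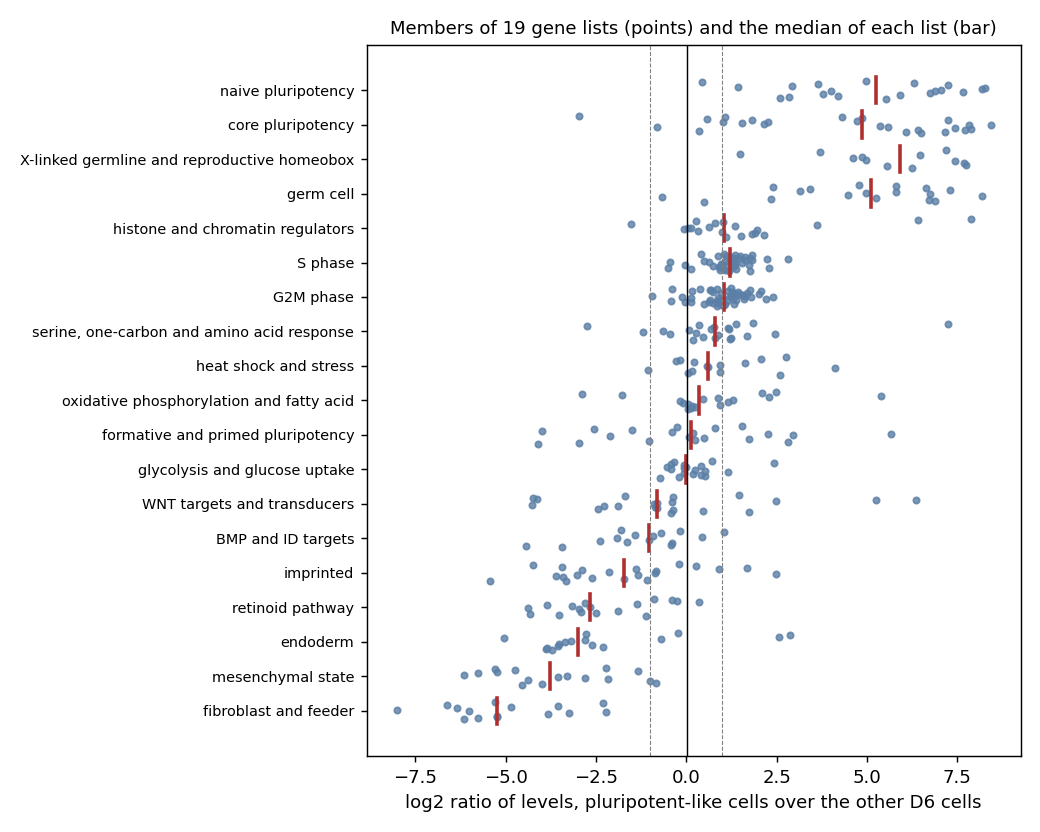
Members of 19 gene lists as points, at the log2 ratio of their level in the pluripotent-like cells over the other D6 cells (members with at least 10 UMIs). Red bars are list medians, the solid line is the median of all genes tested (0.02) and dashed lines are 2-fold; medians run from 5.91 for the X-linked germline list to -5.25 for the fibroblast list.

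Of 19 glycolysis genes tested 2 were higher (10.5%, below the 13.1% of all genes) and none lower (median log2 ratio -0.01), with Gapdh at 780 CPM against 817 and the glucose transporter Slc2a1 at 531 against 884. Within it Ldhb, the heart-type lactate dehydrogenase subunit, was at 1150 CPM against 214 and Pfkp at 330 against 148. In the oxidative phosphorylation and fatty acid list 6 of 17 tested genes were higher (35.3%) and 1 lower. Fabp3, a fatty acid carrier, was at 1694 CPM (1671 to 1717) against 40.1, whereas its relative Fabp5 was at 136 against 467. Mitochondrial Chchd10 (1519 CPM against 358), the ADP/ATP carrier Slc25a5 (1046 against 188) and the respiratory subunit Cox5a (1424 against 636) were higher. In the serine, one-carbon and amino acid list 9 of 20 tested genes were higher (45%) and 1 lower, with a median log2 ratio of 0.78. Asns, asparagine synthetase, was at 1221 CPM against 224. Gcat, which acts on the product of Tdh, was at 120 against 33.4, the glycine decarboxylase Gldc at 65.2 against 25.1 and Mthfd1 at 141 against 43.7, while Phgdh, the first enzyme of serine synthesis, was at 100.3 against 88.6.

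Of 13 heat shock and stress genes tested 5 were higher (38.5%, beside 13.1% of all genes) and none lower. Hsp90aa1 was at 3378 CPM against 555, but its constitutive partner Hsp90ab1 was at 9024 against 8757. Metallothioneins Mt1 (2825 CPM against 669) and Mt2 (1425 against 212) and the small chaperone Hspb1 (452 against 25.9) were higher too. Immediate early genes respond to serum and to tissue handling. They were lower in 6 of 10 tested cases (60%, beside 15.5% of all genes), with Fos at 35.4 CPM against 95.5 and Jun at 124 against 372.

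Cell cycle genes were high here and in the cluster led by Cenpf and Mki67. Of 42 S phase genes tested 29 were higher (69%) and of 54 G2M genes tested 30 were higher (55.6%), beside 13.1% of all genes. None was lower in either list. Summed S phase levels were 5319 CPM in the pluripotent-like cells and 4285 CPM in the cluster led by mitotic genes, against 566 to 2752 CPM in the other 4. Summed G2M levels were 9262 CPM and 13596 CPM in the same 2 clusters and 1462 to 6514 CPM elsewhere. Cyclins differed in kind: Ccne1 (55.9 CPM against 21.6) and Ccnb1 (158 against 51.5) were higher, Ccnd1 was at 55.8 against 58.4, and Ccnd2 was lower (13.1 against 125). Trp53 was at 330 CPM against 119. Its target Cdkn1a was at 417 against 593, and the imprinted inhibitor Cdkn1c was lower, at 53.5 against 434.

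Lists of differentiated fates differed in how they stood. In the mesenchymal list 10 of 11 tested genes were lower (90.9%, beside 15.5% of all genes) and none higher. Vim, the mesenchymal intermediate filament, was at 88.2 CPM against 2042, the collagen gene Col1a1 at 8.37 against 599 and Twist1 at 9.11 against 106. All 6 tested endoderm genes, both tested endothelial and blood genes and all 6 tested fibroblast genes were lower. Summed over each list, the endoderm genes reached 59.9 CPM against 650 in the rest of the culture, the blood and endothelial genes 69.9 against 1346, and the fibroblast genes 38.5 against 1725. Within the cluster these sums were highest in a group of 71 cells rich in called doublets (group 6, described below), at 397, 292 and 176 CPM. In the other groups the endoderm sum was 16.1 to 34.98 CPM. Of 5 neural genes tested 1, Tubb3, was higher (20%) and 3 were lower (60%), beside 13.1% and 15.5% of all genes. Over all its members the neural list had a sum of 204 CPM against 306. The trophoblast list had 1 higher gene, Tfap2c, and 1 lower, Krt7, and a sum of 158 CPM against 165. Of the paraxial mesoderm list 17 of 22 genes in the file were not tested for low detection. Of the 5 tested 1 was higher, Cdx1 (20%), and 3 were lower (60%). Meox1 was at 0.657 CPM against 31.4 and Foxc2 at 0.411 against 10.5. The Meox1 ratio was 0.0209, 0.0116 without called doublets and 0.00871 without group 6, and that of Foxc2 was 0.0393 and 0.0262 without group 6. Tbx6 was at 1.07 CPM against 1.59 and T at 7.23 against 9.53 (ratio 0.758, and 0.373 without group 6), while Tcf15 was at 28.3 CPM against 33.8 in the rest. The smallest ratios were ranked among genes that passed the detection filter, with at least 100 UMIs and 50 CPM on the higher side. Lum, with a ratio of 0.00386, was outside this set. The 10 smallest were those of Lyz2, Lox, Col6a3, Thbs2, Hba-x, Ctla2a, Hbb-y, Postn, Hbb-bh1 and Col1a1, each from 143-fold (Lyz2, 72.4 to 331) to 71.5-fold lower. All 10 were highest in the cluster of Lyz2 and Ctsk or in that of Hba-x and Kdr. Their order depended on the setting. With each cell given equal weight the ratio was 0.0363 for Hbb-bh1 (0.0133 in the sums), 0.0305 for Hba-x (0.0117), 0.0191 for Hbb-y (0.0121), 0.0190 for Ctla2a (0.0118) and 0.0108 for Lyz2 (0.0070). Without called doublets it was 0.00540 for Thbs2 (0.0114) and 0.00656 for Col6a3 (0.0105).

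Epithelial genes gave a mixed picture, with 4 of 15 tested genes higher and 4 lower. Each was 26.7% of the list, beside 13.1% higher and 15.5% lower over all genes. Cdh1 (E-cadherin) was at 61.0 CPM against 79.1 and Epcam at 426 against 779, with 1097 CPM of Epcam in the cluster led by Pomc and Krt18 and 1358 CPM in the one led by mitotic genes. Keratins Krt8 (95.2 against 769) and Krt18 (214 against 1527) and the tight junction gene Cldn6 (31.1 against 203) were lower. The ratio of Krt18 was 0.140, and 0.0810 without group 6. The gap junction gene Gjb5 (45.5 CPM against 0.781) was among those higher.

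Imprinted genes, expressed from 1 parental allele, were mostly lower, with 10 of 17 tested genes lower (58.8%, beside 15.5% of all genes). The 2 higher made up 11.8%, below the 13.1% of all genes. Dlk1 was at 2.87 CPM against 124, H19 at 30.4 against 323, Grb10 at 46.5 against 502 and Peg3 at 134 against 586. Dlk1 was highest in the cluster of Zic1 and Foxc2 (673 CPM) and H19 in that of Hba-x and Kdr (1212 CPM). With called doublets left out, the ratio of Dlk1 was 0.0103 in place of 0.0232, that of H19 0.0473 in place of 0.0942 and that of Grb10 0.0547 in place of 0.0925. Phlda2 (42.9 against 7.64) and Plagl1 (32.1 against 9.95) were the higher ones. Hox genes, the positional code of the trunk, were sparse. Of 39 in the file 3 passed the filter and all 3 were lower, among them Hoxb2 (1.64 CPM against 31.3) and Hoxb4 (3.53 against 21.0). All Hox genes together reached 72.4 CPM against 218.

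Xist, the RNA that coats the inactive X chromosome, was at 38.5 CPM, and 1152 CPM in the cluster of Lyz2 and Ctsk. It was found in 64 pluripotent-like cells at full depth (6.17%). Its antisense partner Tsix was at 18.7 CPM against 2.37. The files' counting by strand is not given in the sources used here, so reads of this pair may not be separable.

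Single genes varied among the pluripotent-like cells by different amounts. If every cell had the same level, chance sampling at 3000 UMIs would leave Nanog with a UMI in 58.8% of cells, and 51.4% had one. For Esrrb the figures were 16.5% and 16.1%, and for Gdf3 19.6% and 18.95%. At their low mean counts, 0.18 and 0.218 UMIs per cell, this measure can barely show a difference between cells. Dppa3 was seen in 54.6% of cells where 73.1% would be seen at an even level, and Tdh in 53.8% against 72.1%. The gap was wider for Rhox5 (29.2% against 56.8%), Krt18 (20.8% against 46.7%) and the calcium-binding S100a13 (32.8% against 71.4%). Without groups 4, 5 and 6 (described next), Krt18 was at 14.6% against 28.5%, Rhox5 at 31.2% against 60.0% and S100a13 at 33.1% against 74.2%.

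**Figure D4:**
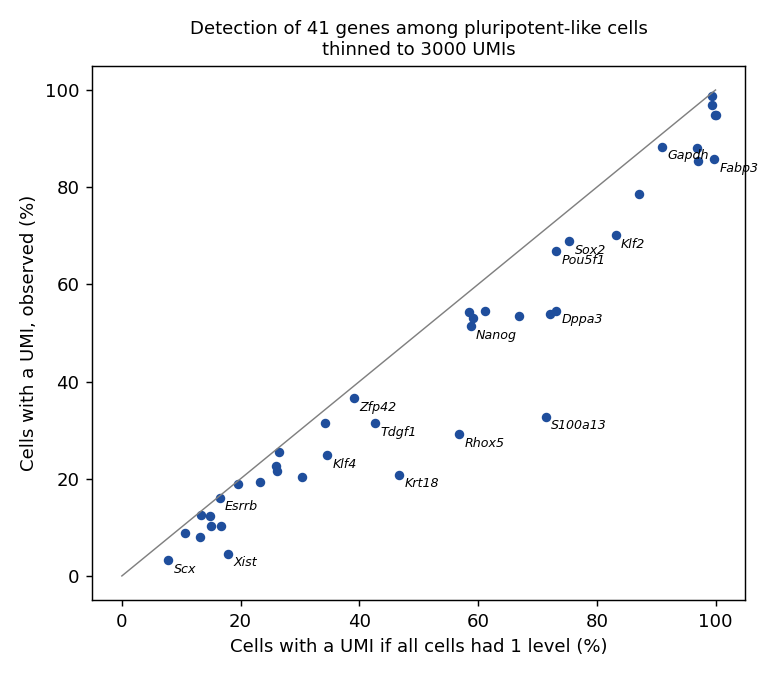
Observed share of cells with a UMI (vertical axis, %) against the share that chance sampling would give if all cells had the same level (horizontal axis, %), for 41 genes among 918 pluripotent-like cells thinned to 3000 UMIs. Points on the line have the share that 1 level would give; Esrrb, at a low mean count, lies near it, and S100a13, Rhox5 and Krt18 lie farthest below it.

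Genes were also seen together or apart. Nanog and Krt18 shared 6.0% of cells (4.5 to 7.7), where independence would give 10.7%. Krt18 was detected in 11.7% of cells with a Nanog UMI and in 30.5% of cells without one. Of the thinned cells with Krt18, 26 lay in group 4 and 50 in group 6, described next, where Nanog was seen in 10.3% and 42.4% of cells, and 73 lay in group 2. Their part in the separation was not tested. For Dppa3 and Dnd1, a germ cell RNA-binding protein, 10.5% of cells held both, where independence would give 6.7%. Nanog and Klf2 shared 40.8% of cells, against 36.1%, and Nodal and Lefty2 shared 1.4%, against 1.3%. Cells share depth and library quality, so these figures describe the cells and are not tests.

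Clustering of the pluripotent-like cells alone gave 7 groups, which are called by number because no marker list fixed a name for them. Their borders depended on the settings: the adjusted Rand index, which is 1 for identical groupings, was 0.188 at resolution 0.2, 0.527 at resolution 1 and 0.451 with cell cycle genes left out. Group 1 (259 cells) was led by BC048679, Dnd1, Plcd1, Ina and Ap3b2. Dppa3 reached 922 CPM there, against 211 CPM in group 2 and 286 CPM in group 3. Utf1 (598 CPM), Tdh (684) and Rhox9 (111) were also at their highest or near it, while Klf4 (26.9 CPM), Tbx3 (16.0) and Tdgf1 (56.7) were low. Its summed germ cell list was 1897 CPM, against 746 and 859 CPM in groups 2 and 3. Group 7 (43 cells) had much of the same pattern (Dppa3 792 CPM, Klf4 21.5, Tdgf1 79.1) together with the highest mitotic levels, its summed G2M list standing at 20544 CPM and Top2a at 1439 CPM.

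Group 2 (253 cells) was led by S100a13, Ahnak2, Neat1, Krt19 and Tinagl1. S100a13 was at 926 CPM there against 168 CPM in the other groups (ratio 5.53, 5.19 to 5.89). Klf4 (238 CPM), Tbx3 (182) and Tfcp2l1 (223) were at their highest and the S phase and G2M lists were low (3509 and 4431 CPM). Fabp3 reached 3446 CPM, and the nuclear RNA Malat1 14548 CPM. Group 3 (228 cells) was led by Cdx1, 1700013H16Rik, Peg10, Morc4 and Dnmt3b. Cdx1 was at 91.1 CPM there against 20.6 CPM in the other groups (ratio 4.42, 3.67 to 5.34), and Cdx2 had 90 of its 105 UMIs in this group, over 26 cells. Tdgf1 (317 CPM) and Lefty2 (94.9 CPM) were high as well, and the median depth was 16157 UMIs per cell. In thinned cells Cdx1 was seen in 19.6% of group 3, 9.5% of group 2 and 1.2% of group 1. Across groups 1, 2, 3 and 7 Pou5f1 ran from 458 to 529 CPM, Sox2 from 465 to 548 CPM and Zfp42 from 154 to 177 CPM. Nanog ran from 298 CPM in group 2 to 400 CPM in group 3, and in thinned cells it was seen in 45.3% of group 2 (38.9 to 51.8) and 65.8% of group 3 (59.2 to 72.0).

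Groups 4, 5 and 6 stood apart in quality measures, and the part of these in their levels was not tested. Group 4 (96 cells) had a median of 4370 UMIs and a mitochondrial share of 0.0834%, where groups 1, 2, 3, 6 and 7 had 1.91 to 2.26%. It was led by Gpnmb, Gadd45g, Trim63, Scx and Serpine2, with Malat1 at 20566 CPM, and Nanog (59.2 CPM), Dppa5a (1304) and Tdgf1 (25.7) were low there. Group 5 (88 cells) had a median of 1813.5 UMIs and a mitochondrial share of 0.436%, with Nanog at 453 CPM and Pou5f1 at 608 CPM. Group 6 (71 cells) held 44 of the 49 called doublets of the cluster, at a median of 18290 UMIs. It carried genes of the cluster led by Pomc and Krt18, with Sox17 at 190 CPM, Dkk1 at 156, Krt18 at 1031 and Car4 at 344. Fgf5 was at 25.5 CPM in group 6 and at 0.744 CPM or less in each of the other groups. Leaving out group 6 changed the genes at least 2-fold higher from 1245 to 1291 and those at least 2-fold lower from 1468 to 1575, and leaving out groups 4 and 5 gave 1314 and 1465. With called doublets left out, the ratio of Dkk1 was 0.0187 in place of 0.0575, that of Lgr5 0.00707 in place of 0.0530 that of Sox17 0.0313 in place of 0.0694 and that of Otx2 0.0785 in place of 0.128. For Ccnd2 it was 0.0619 in place of 0.105, for Krt8 0.0789 in place of 0.124, for Cldn6 0.101 in place of 0.153 and for Col1a1 0.00929 in place of 0.0140.

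**Figure D5:**
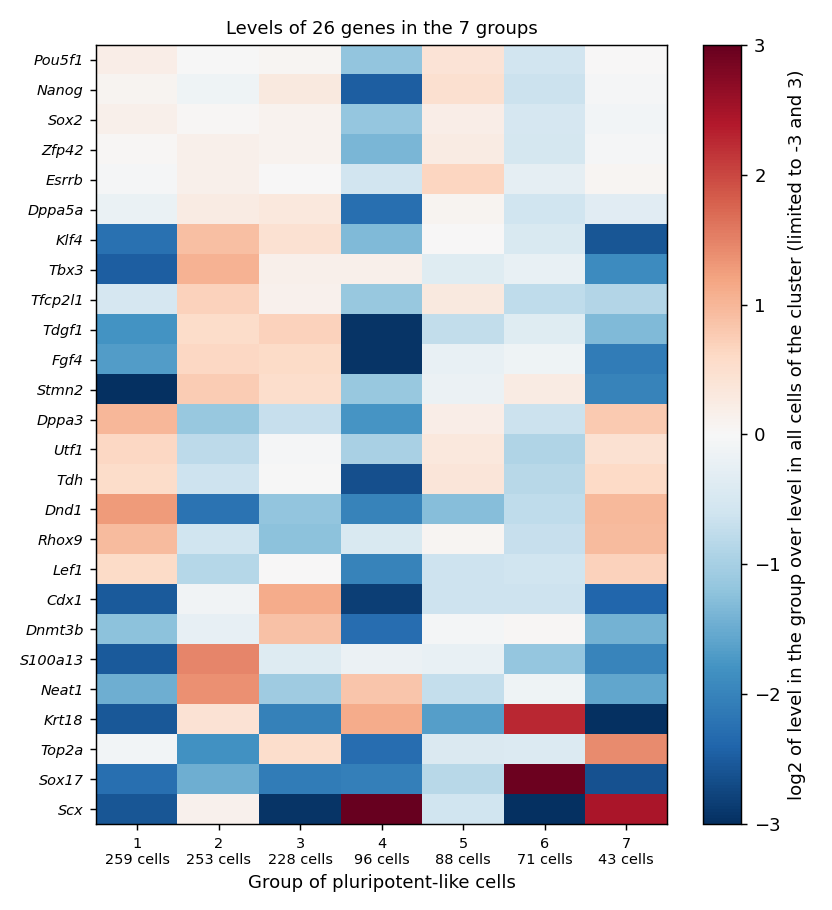
Level of 26 genes in the 7 groups of pluripotent-like cells, as the log2 of the level in the group over that in the whole cluster, limited to -3 and 3 (red higher, blue lower; fewer than 3 UMIs are set to 3). Pou5f1, Sox2 and Zfp42 lie near 0 in groups 1, 2, 3 and 7, Dppa3 and Dnd1 are high in groups 1 and 7, Klf4 and Tbx3 in group 2, and Sox17 in group 6.

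Scx, the tendon transcription factor that the reporter follows, was at 20.8 CPM in the pluripotent-like cells (18.3 to 23.5) and 21.2 CPM in the rest. It was spread unevenly: 253 UMIs lay in 70 cells (6.74%), and 1 cell of group 7 held 82 of them. Group 4 had Scx in 25 of 96 cells, group 2 in 24 of 253 cells (61 UMIs) and groups 1 and 3 in 8 cells each. The ScxGFP row held 13 UMIs in 9 cells.

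The D10 cluster with the most Pou5f1 UMIs (code 3) was set beside these cells. Its number of cells is that of the D10 cluster the study names fibrocartilage, whereas the study places Nanog-expressing D10 cells in another cluster. In the deposited counts code 3 held Dppa5a at 4021 CPM and Nanog at 131 CPM, and the cartilage genes Sox9 at 5.97 CPM and Acan at 3.07 CPM, against 410 and 208 CPM in code 4. It is therefore called by its code. D10 codes 5 and 6 also held pluripotency genes: Pou5f1 was at 351 and 346 CPM, Nanog at 78.3 and 84.2 CPM, Sox2 at 160.0 and 296 CPM and Dppa5a at 376 and 2155 CPM. Code 5 has the number of cells of the cluster in which the study places Nanog-expressing cells. Of 9179 genes tested over both 275 were at least 2-fold higher at D6 (3.0%) and 380 at D10 (4.14%). Pou5f1, by which code 3 was chosen, was at 460 CPM at D6 and 545 CPM at D10. Sox2 was at 496 and 373, and Klf2 at 596 and 415. Nanog was higher at D6 (326 against 131), as were Klf4 (128 against 33.0), Dppa3 (463 against 135) and Tdh (465 against 111). Otx2 (9.77 against 115), Pou3f1 (15.03 against 161) and Dnmt3b (28.7 against 273) were higher at D10. Sp5, with 57.7 CPM at D6 and 1.62 CPM at D10 (ratio 35.6, 22.6 to 59.5), and S100a13 (335 against 22.9) had the largest ratios toward D6 among genes at 50 CPM or more, and Prph and Calca the largest toward D10. Below that level Sox17, a gene of group 6, was at 24.6 CPM against 0.426. Medium, day and library differ together between these 2 samples and cannot be told apart.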

How the data were processed

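The cluster held 1038 of 5954 D6 cells, and the D10 cluster set beside it 1088 cells. Cells were captured on a droplet platform and their UMI counts deposited as 1 table of genes by cells with a cluster row. Per the labels and the paper's methods, the authors aligned reads with Cell Ranger, ignored reads of several places, removed cells above 7.5% mitochondrial reads and the lowest and highest 2% by transcripts, and clustered with Seurat 3.0; the reference is not given in the sources used here. From the deposited counts, UMIs were summed over cells and given as CPM with exact 95% Poisson intervals, and ratios with conditional binomial intervals. A gene was tested for the 2-fold rule where at least 10% of cells of either side held a UMI. In its ratio a side with 0 counts was set to 3 counts. Doublets were called with Scrublet (expected 6%): 98 of 5954 cells, 49 of them pluripotent-like. They stayed in. The cells were clustered again in Scanpy 1.11.5 (2000 variable genes, 30 components, 15 neighbours, Leiden resolution 0.5). Totals were 51858825 UMIs at D6 and 53403944 at D10. No column of samples was left unused (0). Genes were named if they were in the gene lists, were Hox genes or were named by the study. Others, with at least 100 UMIs and 50 CPM, were named for their ratio. These were the 20 largest ratios, the 10 smallest, and 5 each way in groups and D10. Members and lists were chosen with earlier results of these data known. D6 and D10 shared 10 cell barcodes, none of them between the 2 clusters compared, and D6 shared 3 with the tail library. Single-gene values of a few list members are not reported here.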

Additional observations from a re-analysis of the deposited data

How the results depend on the processing

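No paired analysis was possible because each condition has 1 library. The counts of genes at least 2-fold higher (1245) and lower (1468) became 646 and 856 at 3-fold and 2858 and 5471 without the detection filter (at least 10 UMIs), as fewer or more genes could pass. With doublets, mitochondrial and ribosomal genes, cells under 1000 genes or cells without a marker UMI left out, each cell given equal weight, or centring on the median gene, they ranged from 1212 to 1286 and from 1401 to 1576. The alternatives without group 6 or groups 4 and 5 were chosen after seeing the data. The share of D6 cells was 12.7% when cells with UMIs of all of Pou5f1, Nanog and Dppa5a took the place of the cluster. The share of pluripotent-like cells with a UMI was higher at greater depth, at 81.0% for Pou5f1, 69.2% for Nanog and 97.8% for Dppa5a at 5000 UMIs and 85.9% and 75.0% for Pou5f1 and Nanog without thinning. The number of groups was 3 at resolution 0.2, 11 at resolution 1 and 6 with cell cycle genes left out. At resolution 1, 47.9%, 53.4% and 47.8% of the cells of groups 1, 2 and 3 stayed together, and 55.7% of group 2 without cell cycle genes. Of 550 ratios followed, 276 had a 2-fold call and 0 of these changed direction. A total of 44 moved by over 1.5 times with doublets left out and 50 with each cell given equal weight.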

Other observations

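Some levels rested on single cells. All 34 UMIs of Sp110 in the pluripotent-like cells came from 1 cell of group 5, so its ratio of 22.2 was 1.94 with cells under 1000 genes left out. Olig2, a neural progenitor factor, had 59 UMIs in 44 cells, of which 16 were in group 2 and 23 in group 3. Hoxc13, a posterior Hox gene, had 64 UMIs in 58 cells and was at 5.25 CPM against 0.781 in the rest of the culture, opposite in direction to Hoxb2 and Hoxb4, and neither it nor Olig2 passed the detection filter. Hormad1, a meiotic chromosome protein, had 1811 UMIs in 542 cells and a share of 86.0% of cells in group 7 at full depth.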
